A study of Mus musculus with 42 samples.

Results

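Etnppl encodes ethanolamine-phosphate phospho-lyase and is described here across 30 mouse cerebellum libraries. It was taken up by its symbol, as 1 of the 35275 genes in the deposited tables (identifier ENSMUSG00000019232), because it stood out among the differences between fasted and freely fed mice at the end of the regimens. Its values in those comparisons are therefore a description, given without a test. The tables place it on the plus strand of chromosome 3, from 130617448 to 130635750, as a protein-coding gene with a length of 2697 bases, and 0 other listed genes overlap it.

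The enzyme uses pyridoxal phosphate to break phosphoethanolamine into ammonia, phosphate and acetaldehyde. Phosphoethanolamine is the intermediate from which the Kennedy pathway builds phosphatidylethanolamine, a major lipid of brain membranes, so the reaction draws on the same pool as phospholipid synthesis. In the brain the transcript is known mainly from astrocytes. In whole cerebellum, fewer cells of a type and less RNA per cell cannot be told apart.

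The mice were male C57BL/6 (the NTac substrain), bought in and 3 months old when they were assigned at random to a regimen. AL mice fed freely. IF16 mice went without food for 16 h each day, and EOD mice for 24 h on alternate days. Cerebella of these 3 groups were collected after 3 months of the regimen, at 6 months of age. Other mice had the same 3 months and then 2 months of free feeding in all groups, and were collected at 8 months of age as AL-R, IF16-R and EOD-R. Each group had 5 RNA libraries, and the labels give no hour of collection. The 12 chromatin samples of the series were not analysed here.

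Library totals ranged from 26799825 to 36167435 counts. At the end of the regimens 4 libraries stood apart in how level depended on gene length (AL replicates 4 and 5, IF16 replicate 1 and EOD replicate 4). Choroid plexus markers, from tissue that adjoins the cerebellum, varied widely within every group: their summed level ran from 155 to 5122 over the 30 libraries in normalised CPM (counts scaled to a common library size). AL-R replicate 1 had 2753 against a median of 176 in its group. The 24 markers of astrocytes and Bergmann glia, the radial astrocytes of the cerebellar cortex, were detected in every library, with summed levels from 10488 to 13184.

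The stretch of 250 bases before the annotated start was read because the gene whose level ran closest with Etnppl is a clock output (Tef). RefSeq's table for GRCm38.p6 gives it as chr3:130617198-130617447 on the plus strand, and it is shown 5′ to 3′ with the match to a searched motif in capitals. That source holds 2 windows for Etnppl, and only the first by position was searched.
Etnppl upstream: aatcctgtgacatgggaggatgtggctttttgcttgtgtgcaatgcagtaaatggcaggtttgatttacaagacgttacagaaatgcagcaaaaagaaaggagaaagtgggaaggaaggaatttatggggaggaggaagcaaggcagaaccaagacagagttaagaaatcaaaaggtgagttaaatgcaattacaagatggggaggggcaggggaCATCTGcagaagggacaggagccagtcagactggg

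The capitals mark the general E-box form CANNTG, found once, 35 bases before the start, a form that 66.2% of 32851 promoter windows of this length hold on either strand. The E-box core CACGTG bound by the clock activators was not among these letters, and 6.0% of windows hold it. Neither D-box form searched was present (TTATGTAA, in 0.8% of windows, and TTACGTAA, in 0.1%), nor the glucocorticoid receptor half-site AGAACA (16.1%), the nuclear receptor half-site AGGTCA (14.0%) or the FOXO site GTAAACA (3.2%). Both strands were searched and matches of different motifs may overlap. The window is a description of these letters only, and GC made up 46.0% of it.

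Etnppl was higher in both fasted groups than in freely fed mice at the end of the regimens. In the AL libraries it had 95.7, 94.0, 91.1, 84.9 and 96.0 CPM, with a mean of 92.3 ± 4.6 (SD, n = 5). In IF16 it had 135, 128, 133, 124 and 131 CPM, with a mean of 130 ± 4.38 (SD, n = 5). In EOD it had 147, 145, 139, 135 and 135 CPM, with a mean of 140 ± 5.63 (SD, n = 5).

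All 10 fasted libraries lay above all 5 AL libraries, and IF16 and EOD overlapped. The raw counts behind these values ran from 2800 to 3311 (AL), 4048 to 4550 (IF16) and 3984 to 4835 (EOD). On the per-length scale of the deposited FPKM the AL mean was 34.3 ± 2.18, the IF16 mean 48.6 ± 1.73 and the EOD mean 51.6 ± 2.96 (SD, n = 5 each). The fitted log2 fold change was 0.50 (SE 0.0539) for IF16 against AL and 0.60 (SE 0.0539) for EOD against AL, which is 1.41 and 1.52 times the AL level. EOD against IF16 differed by 0.11 (SE 0.0537). Without the 4 libraries that stood apart in gene length, IF16 against AL was 0.46 and EOD against AL was 0.59, both on the log2 scale.

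**Figure D1:**
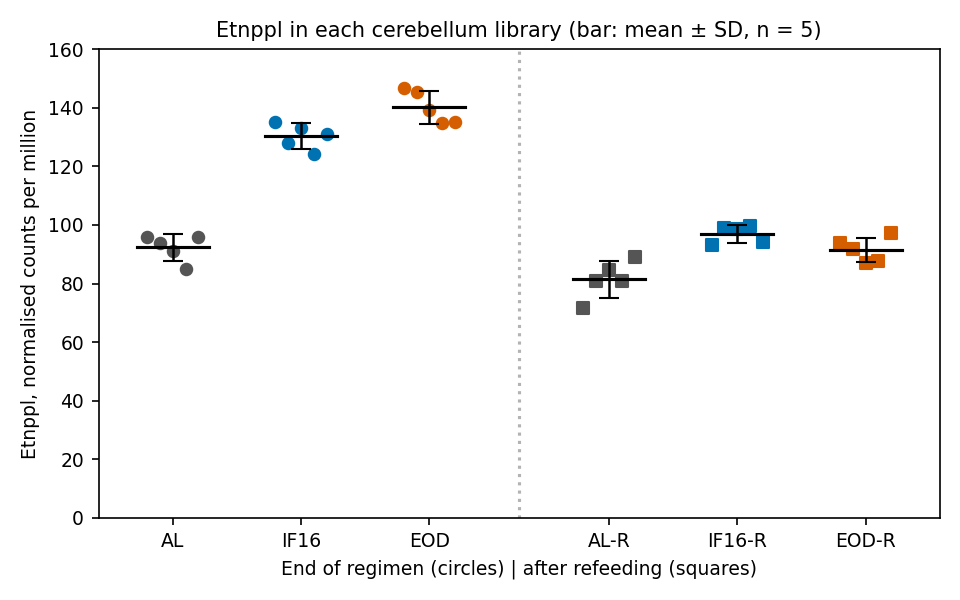
Etnppl in normalised CPM (vertical axis, from 0) in each of the 30 libraries by group, with circles for the end of the regimens and squares for after refeeding; horizontal bars with whiskers are means ± SD (n = 5). The fasted groups sit at means of 130 and 140 against 92.3 in AL, and the refed groups lie between 71.8 and 99.7.

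These differences are moderate in size. Of 16577 genes tested, 697 had a larger absolute log2 fold change than Etnppl in IF16 against AL and 491 in EOD against AL. The median absolute log2 fold change over all genes was 0.111 and 0.141 in the same comparisons. Within groups, the SD of log2 CPM of Etnppl was 0.0608, and of the 500 genes nearest to it in level 31 had a smaller one. Libraries that do not overlap and lie higher were found for 0.857% of genes in IF16 against AL and for 1.36% in EOD against AL. The gene was chosen on these libraries, which favours a small spread in them. Nothing is therefore read for Etnppl from these shares or from its within-group SD.

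After 2 months of refeeding the order of the groups was kept for IF16-R over AL-R, at a smaller size. In AL-R, Etnppl had 71.8, 80.9, 84.5, 80.9 and 88.9 CPM, with a mean of 81.4 ± 6.29 (SD, n = 5). In IF16-R it had 93.2, 98.97, 98.7, 99.7 and 94.2 CPM, with a mean of 97.0 ± 3.00 (SD, n = 5). In EOD-R it had 93.8, 91.7, 87.0, 87.8 and 97.1 CPM, with a mean of 91.5 ± 4.21 (SD, n = 5).

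Every IF16-R library lay above every AL-R library, while 2 of the 5 EOD-R libraries lay below the highest of AL-R. Non-overlapping, higher libraries were found for 1.07% of 16444 genes in IF16-R against AL-R and for 0.949% in EOD-R against AL-R. The result in these mice was already known when the gene was taken up, so the tests that follow are not an independent check. IF16-R exceeded AL-R by 0.25 on the log2 scale (SE 0.0479), 19.1% higher, with an adjusted p of 0.0378 by edgeR's quasi-likelihood test with Benjamini-Hochberg adjustment over all genes. The rule called 0.0669% of genes higher in that comparison, and 1534 genes had a larger absolute log2 fold change. EOD-R exceeded AL-R by 0.17 (SE 0.048), with an adjusted p of 0.287 by the same edgeR test, and 0.0243% of genes were called higher.

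An exact two-sided permutation test over the libraries, with 252 arrangements, gave p = 0.0079 for IF16-R against AL-R, the smallest p it can give. For EOD-R against AL-R the exact permutation p was 0.024. EOD-R against IF16-R differed by -0.08 (SE 0.0478), with an exact permutation p of 0.048 and an adjusted p of 0.604 by edgeR with Benjamini-Hochberg adjustment. Adjusted over these 3 comparisons, the exact permutation p-values were 0.024, 0.036 and 0.048. The edgeR call for IF16-R against AL-R is close to the threshold: it held in 2 of 10 fits that left out 1 library each, where the adjusted p ran from 0.022 to 0.131.

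AL-R replicate 1, the library with the high choroid plexus markers, had the lowest Etnppl level of all 30. Without it, IF16-R exceeded AL-R by 0.21 on the log2 scale, with an edgeR adjusted p of 0.0764 (Benjamini-Hochberg), and EOD-R exceeded AL-R by 0.13, with an edgeR adjusted p of 0.528. The slope of level on gene length separated the same groups, at most -0.00359 in AL-R and at least 0.00465 in IF16-R. With that slope in the fit the difference of IF16-R from AL-R was 0.24 (SE 0.0719) and the edgeR adjusted p (Benjamini-Hochberg) was 0.999. The slope and the regimen cannot be told apart in these 10 libraries. With the mean of the choroid plexus markers in the fit, the difference was 0.24 (SE 0.0416) and the edgeR adjusted p was 0.0242.

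Red blood cell markers, from blood left in the tissue, had estimates opposite in sign to that of Etnppl in the refed groups. None of the 5 was called in IF16-R or EOD-R against AL-R, where 0.17% and 0.0426% of all genes were in either direction. The median log2 fold change of the 5 was -0.88 in IF16-R and -1.61 in EOD-R. At an unadjusted p under 0.05, 2 of 5 were lower in IF16-R and 5 of 5 in EOD-R, against 4.83% and 3.99% of all genes. Their summed level ran from 8.63 to 114 CPM in AL-R, 13.9 to 56.3 in IF16-R and 14.8 to 25.7 in EOD-R, and their part in the Etnppl difference was not tested.

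On a scaling shared by all 30 libraries, the groups from lowest to highest were AL-R at 81.3 CPM, EOD-R at 91.1, AL at 92.5, IF16-R at 97.0, IF16 at 131 and EOD at 140. Each pair of neighbours in that order overlapped, except that the highest IF16-R library (99.5) lay below the lowest IF16 library (126). The difference of IF16 from its controls was larger than that of IF16-R by 0.24 on the log2 scale (SE 0.0699), and the difference of EOD larger than that of EOD-R by 0.44 (SE 0.0699). Nothing is read from these for Etnppl, and over all 16877 genes 0.0474% and 0.0119% passed the adjusted threshold for such a difference in either direction. AL-R lay below AL by 0.19 (log2 estimate -0.19, SE 0.0495). Age, the refeeding phase and the separate deposited tables cannot be told apart in that last value, and 23.9% of 16877 genes passed the adjusted threshold in it.

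None of the listed genes that make or use phosphoethanolamine was called against freely fed mice of the same time. On the FPKM scale, the only one used here to set genes side by side, Etnppl in AL (34.3) was level with Etnk1 (34.4 ± 8.95, SD, n = 5), the kinase that makes phosphoethanolamine. It was below Pcyt2 (110 ± 20.3), the enzyme that commits phosphoethanolamine to phospholipid. It was above Ept1 (8.09 ± 1.47), the ethanolamine phosphotransferase also known as Selenoi, and Pisd (8.21 ± 0.469), which makes phosphatidylethanolamine in mitochondria. In AL-R, Etnppl (30.3 ± 2.09) was below Etnk1 (42.45 ± 1.43, SD, n = 5 each), so the 2 were level in AL only.

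Of 16 genes of ethanolamine phospholipid metabolism, 0 were called in either direction in any of the 4 comparisons with freely fed mice. The share of all genes called in either direction by edgeR was 0.0483% for IF16 against AL, 0.0664% for EOD against AL, 0.17% for IF16-R against AL-R and 0.0426% for EOD-R against AL-R. At an unadjusted p under 0.05, the 16 genes held 1 higher in IF16 against AL (Chka, a choline and ethanolamine kinase), where 4.35% of all genes were higher, and 1 higher in EOD against AL (Sgpl1, the lyase that releases phosphoethanolamine from sphingosine phosphate), where 7.02% were. Their median log2 fold change was 0.07 in IF16 and 0.02 in EOD. Etnk1 had log2 fold changes of 0.19 (SE 0.154) and 0.23 (SE 0.154), and Pcyt2 of -0.15 (SE 0.145) and -0.27 (SE 0.145), in IF16 and EOD against AL.

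After refeeding, 2 of the 16 genes were higher and 1 lower in IF16-R against AL-R at an unadjusted p under 0.05, against 4.76% and 4.83% of all genes. In EOD-R against AL-R 1 was higher, where 4.51% of all genes were. The closest relatives of the enzyme gave little to set beside it. Phykpl, which acts on phosphohydroxylysine, had 3.38 FPKM in AL and log2 fold changes of 0.04, 0.04, -0.08 and -0.12 in the 4 comparisons in the order above, and Agxt2, an aminotransferase, was too low to be tested. Genes that take up the products, among them Glul for ammonia and Aldh2 for acetaldehyde, had 0 of 6 called in each comparison. The shares of all genes called in either direction were 0.0483%, 0.0664%, 0.17% and 0.0426% in the same order.

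At the end of the regimens markers of astrocytes and Bergmann glia lay around 0 as a list, where Etnppl was higher. Their median log2 fold change was 0.002 in IF16 and -0.001 in EOD, and 1 of 24 was called. That gene was Fabp7, a fatty acid binding protein of Bergmann glia and immature astrocytes, which was lower in IF16: 21.3 ± 3.84 CPM against 50.7 ± 10.1 (SD, n = 5 each), in a comparison where 0.0121% of all genes were called lower. The Fabp7 difference was -1.25 (log2, SE 0.2), with an edgeR adjusted p of 0.033 (Benjamini-Hochberg). That call held in 3 of 10 fits without 1 library. Gfap, the astrocyte filament protein, was at 212 ± 39.1 CPM in AL and 216 ± 28.1 in IF16, and Slc1a3, a glutamate transporter of these cells, differed by 0.08 (SE 0.0927). At an unadjusted p under 0.05, 1 of the 24 was higher and 1 lower in IF16, against 4.35% and 5.57% of all genes. In EOD 3 were higher and 1 lower, against 7.02% and 7.4%. Gjb6 was the highest of the list in both, at 0.34 (SE 0.0961) and 0.40 (SE 0.0961). Its edgeR adjusted p-values were 0.288 and 0.188 (Benjamini-Hochberg).

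Set against the mean of the 24 markers in the same library, the log2 level of Etnppl averaged -1.47 ± 0.0936 for AL mice, -0.93 ± 0.0796 for IF16 mice and -0.87 ± 0.118 for EOD mice (SD, n = 5 each). The highest AL library (-1.39) lay below the lowest of IF16 (-1.02) and of EOD (-1.05). The marker means were 7.997 in AL, 7.956 in IF16 and 8.003 in EOD (log2 CPM). The measure therefore largely restates the Etnppl values on which the gene was chosen, and nothing is read from this separation. After refeeding the same measure averaged -1.59 ± 0.107 for AL-R, -1.39 ± 0.0558 for IF16-R and -1.47 ± 0.0748 for EOD-R, with the lowest IF16-R library (-1.486) just above the highest of AL-R (-1.49) and EOD-R overlapping AL-R.

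After refeeding, 2 of the 24 markers were called higher in IF16-R against AL-R and 1 in EOD-R against AL-R, where 0.0669% and 0.0243% of all genes were. At an unadjusted p under 0.05, 6 were higher and 1 lower in IF16-R, against 4.76% and 4.83% of all genes. In EOD-R 5 were higher and 0 lower, against 4.51% and 3.99%. The median log2 fold change of the list was 0.07 in IF16-R and 0.04 in EOD-R. Gja1, the main astrocyte gap junction protein, had 201, 222, 212, 236 and 216 CPM in AL-R and 258, 262, 280, 259 and 290 CPM in IF16-R, with no overlap. Its log2 fold change was 0.31 (SE 0.0448), with an edgeR adjusted p of 0.0116 (Benjamini-Hochberg), and in EOD-R it was 0.27 (SE 0.0448), with an edgeR adjusted p of 0.0427. Aqp4, the water channel of astrocyte endfeet, rose in IF16-R from 255 ± 9.999 to 299 ± 15.5 CPM (SD, n = 5 each), by 0.23 on the log2 scale (SE 0.0437, edgeR adjusted p = 0.0374, Benjamini-Hochberg). In fits without 1 library the Gja1 calls held in 9 of 10 (IF16-R) and 2 of 10 (EOD-R) and the Aqp4 call in 1 of 10. Like the Etnppl call, neither IF16-R call passed with the gene length slope in the fit. In mice still on the regimens, Gja1 differed from AL by 0.09 (SE 0.0834) in IF16 and 0.07 (SE 0.0834) in EOD.

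**Figure D2:**
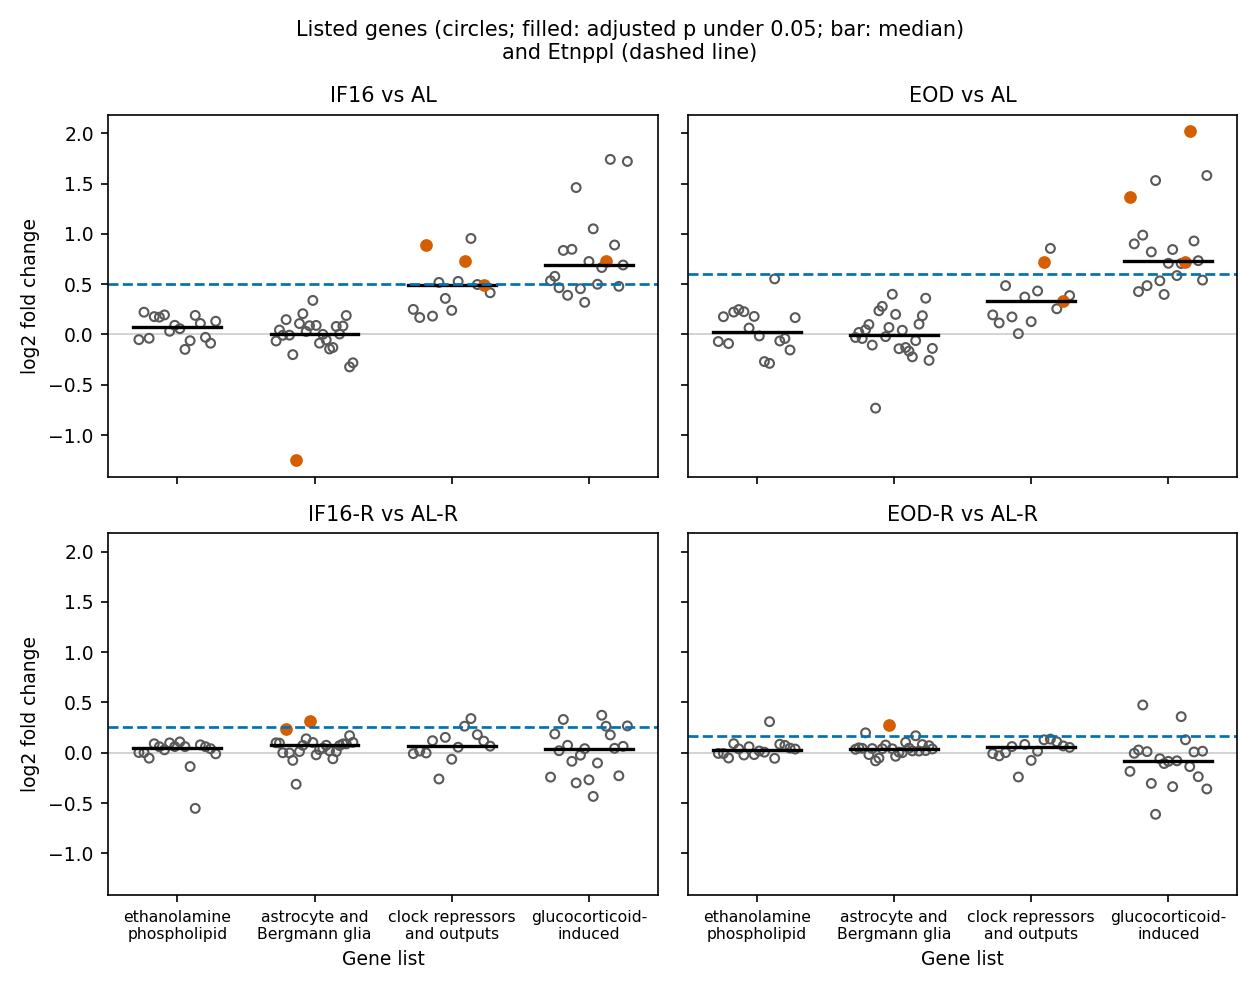
Log2 fold changes (vertical axis) of the members of 4 gene lists (horizontal axis) in 4 comparisons, with called genes filled, list medians as bars and Etnppl as a dashed line. At the end of the regimens the Etnppl lines at 0.50 and 0.60 run within the clock and glucocorticoid-induced genes and above the medians of the ethanolamine and astrocyte lists, which are between -0.001 and 0.07.

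The circadian clock is a transcription loop in which Arntl and Clock drive Per, Cry and Nr1d genes that repress it, with outputs such as Dbp, Tef and Hlf. These lists were assembled with earlier results of these data known, so their direction is not independent evidence. Of 13 clock repressors and outputs, 3 were called higher in IF16 (Ciart, Tef and Per1) and 2 in EOD (Per1 and Tef), against 0.0362% and 0.0543% of all genes. At an unadjusted p under 0.05, 13 of 13 were higher in IF16 and 10 of 13 in EOD, against 4.35% and 7.02% of all genes. Their median log2 fold change was 0.49 in IF16 and 0.34 in EOD, beside 0.50 and 0.60 for Etnppl.

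Tef, an output that binds D-boxes, had 316, 301, 287, 281 and 283 CPM in AL, 414, 410, 415, 391 and 429 in IF16, and 399, 355, 342, 395 and 362 in EOD. Both fasted groups lay above AL without overlap, and IF16 was above EOD in mean, the opposite order to Etnppl. The Tef log2 fold change was 0.49 (SE 0.0594) in IF16, with an edgeR adjusted p of 0.00174 (Benjamini-Hochberg), and 0.34 (SE 0.0593) in EOD, with an edgeR adjusted p of 0.0485. The EOD call for Tef held in 0 of 10 fits without 1 library, while the IF16 call held in 10 of 10.

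Ciart, which represses the clock loop, averaged 11.04 ± 1.09 CPM under free feeding and rose to 20.4 ± 2.88 under IF16 (SD, n = 5 each), with a log2 fold change of 0.89 (SE 0.107, edgeR adjusted p = 0.00174, Benjamini-Hochberg). Per1, a repressor that is also induced by glucocorticoids, averaged 110 ± 16.0 CPM under free feeding and rose to 182 ± 25.8 under IF16 and to 182 ± 27.9 under EOD, with edgeR adjusted p-values of 0.0451 and 0.0436 (Benjamini-Hochberg). In fits without 1 library the Ciart call held in 10 of 10, and the Per1 calls in 2 of 10 (IF16) and 1 of 10 (EOD). Dbp did not follow Etnppl in EOD, at 48.2 ± 9.87 CPM in AL and 48.5 ± 4.11 in EOD. Among 6 clock activators and opposite-phase genes 0 were called in IF16 or EOD, where 0.0483% and 0.0664% of all genes were in either direction. Arntl differed by -0.30 (log2, SE 0.06) in IF16, with an edgeR adjusted p of 0.103 (Benjamini-Hochberg).

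After refeeding 0 of the 13 clock repressors and outputs were called in either comparison with AL-R, and their medians were 0.07 and 0.05. Of all genes 0.17% and 0.0426% were called in either direction. At an unadjusted p under 0.05, 4 of the 13 were higher and 1 lower in IF16-R, against 4.76% and 4.83% of all genes. In EOD-R 0 were higher and 1 lower, against 4.51% and 3.99%. Tef exceeded AL-R by 0.12 (SE 0.0455) in IF16-R, with an edgeR adjusted p of 0.421 (Benjamini-Hochberg). Dbp ran against Etnppl there, at -0.26 (SE 0.0857) in IF16-R and -0.24 (SE 0.0857) in EOD-R, with edgeR adjusted p-values of 0.341 and 0.43.

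Glucocorticoids, the adrenal hormones released in fasting, act through the receptor Nr3c1 and induce genes such as Fkbp5, which dampens the receptor, and Sgk1, a kinase. Of 19 such genes 1 was called higher in IF16 (Per1) and 3 in EOD (Plin4, Angptl4 and Per1), against 0.0362% and 0.0543% of all genes. At an unadjusted p under 0.05, 17 of 19 were higher in IF16 and 18 of 19 in EOD, against 4.35% and 7.02% of all genes, and the medians were 0.69 and 0.73. Plin4, a lipid droplet protein, averaged 2.14 ± 0.345 CPM under free feeding and rose to 8.69 ± 2.56 under EOD (SD, n = 5 each), by 2.02 on the log2 scale (SE 0.357, edgeR adjusted p = 0.0485, Benjamini-Hochberg), a call that held in 0 of 10 fits without 1 library. Angptl4, an inhibitor of lipoprotein lipase, rose from 2.84 ± 0.728 to 7.30 ± 1.46 CPM in EOD (edgeR adjusted p = 0.0233, Benjamini-Hochberg), a call that held in 4 of 10 such fits.

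In IF16, Fkbp5 and Plin4 varied more from library to library than Etnppl did. In the IF16 libraries Fkbp5 had 10.1, 10.1, 10.5, 17.6 and 27.5 CPM and Plin4 had 4.78, 3.13, 4.74, 7.64 and 15.6 CPM. Replicate 5 was the highest for both. Etnppl in that library was 131 CPM, the median of its group, and the group's coefficient of variation for Etnppl was 3.36%. Etnppl was chosen on these libraries, which favours a small spread, and Fkbp5 and Plin4 were at lower levels. Nothing is therefore read from this contrast in spread. Fkbp5 differed from AL by 0.85 (log2, SE 0.281) in IF16, with an edgeR adjusted p of 0.363 (Benjamini-Hochberg). Nr3c1 itself differed by 0.14 (SE 0.125).

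After refeeding 0 of the 19 glucocorticoid-induced genes were called, with medians of 0.04 in IF16-R and -0.08 in EOD-R. Of all genes 0.17% and 0.0426% were called in either direction. At an unadjusted p under 0.05, 1 of the 19 was higher and 2 lower in IF16-R, against 4.76% and 4.83% of all genes. In EOD-R 1 was higher and 0 lower, against 4.51% and 3.99%. The mean of Fkbp5 was 9.82 ± 2.60 CPM for AL-R, 9.29 ± 2.54 for IF16-R and 7.95 ± 0.861 for EOD-R (SD, n = 5 each), and the groups overlapped.

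Within groups, library by library, Etnppl was set against list means after the group means were removed (15 libraries at each time, 12 relations, permutation of libraries within groups with 100000 resamples). At the end of the regimens r was 0.418 with the clock repressors and outputs (rho 0.314, permutation p = 0.16, adjusted 0.27), -0.446 with the glucocorticoid-induced genes (rho -0.511, permutation p = 0.057, adjusted 0.17) and -0.514 with the astrocyte markers (rho -0.5, permutation p = 0.065, adjusted 0.17). Without the 2 libraries farthest from the median these became 0.67, -0.566 and -0.728. The clock value depended on single libraries, at 0.244 without AL replicate 4 and 0.667 without EOD replicate 4. No relation at this time passed the adjusted threshold, with all 15 libraries or without any 1 of them.

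After refeeding r was 0.646 with the clock repressors and outputs (rho 0.461, permutation p = 0.062, adjusted 0.17) and 0.452 with the glucocorticoid-induced genes (rho 0.396, permutation p = 0.071, adjusted 0.17). With the astrocyte markers it was 0.243 (rho 0.139, permutation p = 0.46, adjusted 0.56), and 0.0595 without AL-R replicate 1. The first 2 rest on few libraries: without the 2 farthest from the median they were 0.269 and 0.13, and without AL-R replicate 1 alone they were 0.213 and 0.291. The strongest of the 12 relations was with the choroid plexus markers after refeeding, at r = -0.673 (rho -0.504, permutation p = 0.013, adjusted 0.16), and it was -0.352 without AL-R replicate 1 and EOD-R replicate 3. Without EOD-R replicate 4 alone it was -0.8 and passed (permutation p adjusted over the 12 relations 0.017), the one relation that passed in any such fit. Before refeeding it was -0.357 (rho -0.361, permutation p = 0.24, adjusted 0.36), and -0.231 without IF16 replicate 4.

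The remaining relations were weaker or did not pass either. With the ethanolamine phospholipid genes r was -0.425 at the end of the regimens (rho -0.25, permutation p = 0.15, adjusted 0.27) and 0.27 after refeeding (rho -0.0214, permutation p = 0.31, adjusted 0.42). Leaving out AL replicate 4 gave -0.214 at the end of the regimens, and leaving out AL-R replicate 1 gave -0.0413 after refeeding. With the gene length slope it was 0.169 (rho 0.0, permutation p = 0.61, adjusted 0.67) and 0.0483 (rho -0.0429, permutation p = 0.84, adjusted 0.84).

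Libraries with the same replicate number in the labels stood at like levels for some of these measures, which permutation within groups does not take into account. After refeeding the mean of the glucocorticoid-induced genes was lowest in replicate 1 and highest in replicate 5 of all 3 groups, and 91.2% of its variance within groups lay between the numbers. That share was 77.0% for the clock repressors and outputs, 74.0% for the astrocyte markers and 30.6% for Etnppl, beside a median of 43.4% over all genes.

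At the end of the regimens the share was 70.4% for Etnppl, 63.3% for the glucocorticoid-induced genes and 13.6% for the clock repressors and outputs, beside a median of 26.1% over all genes. With the means of the numbers removed as well, the r of Etnppl to the glucocorticoid-induced genes was -0.0804 at the end of the regimens and 0.013 after refeeding. To the astrocyte markers it was 0.0471 and -0.112, and to the clock repressors and outputs 0.601 and 0.594. The labels do not say what a number stands for.

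**Figure D3:**
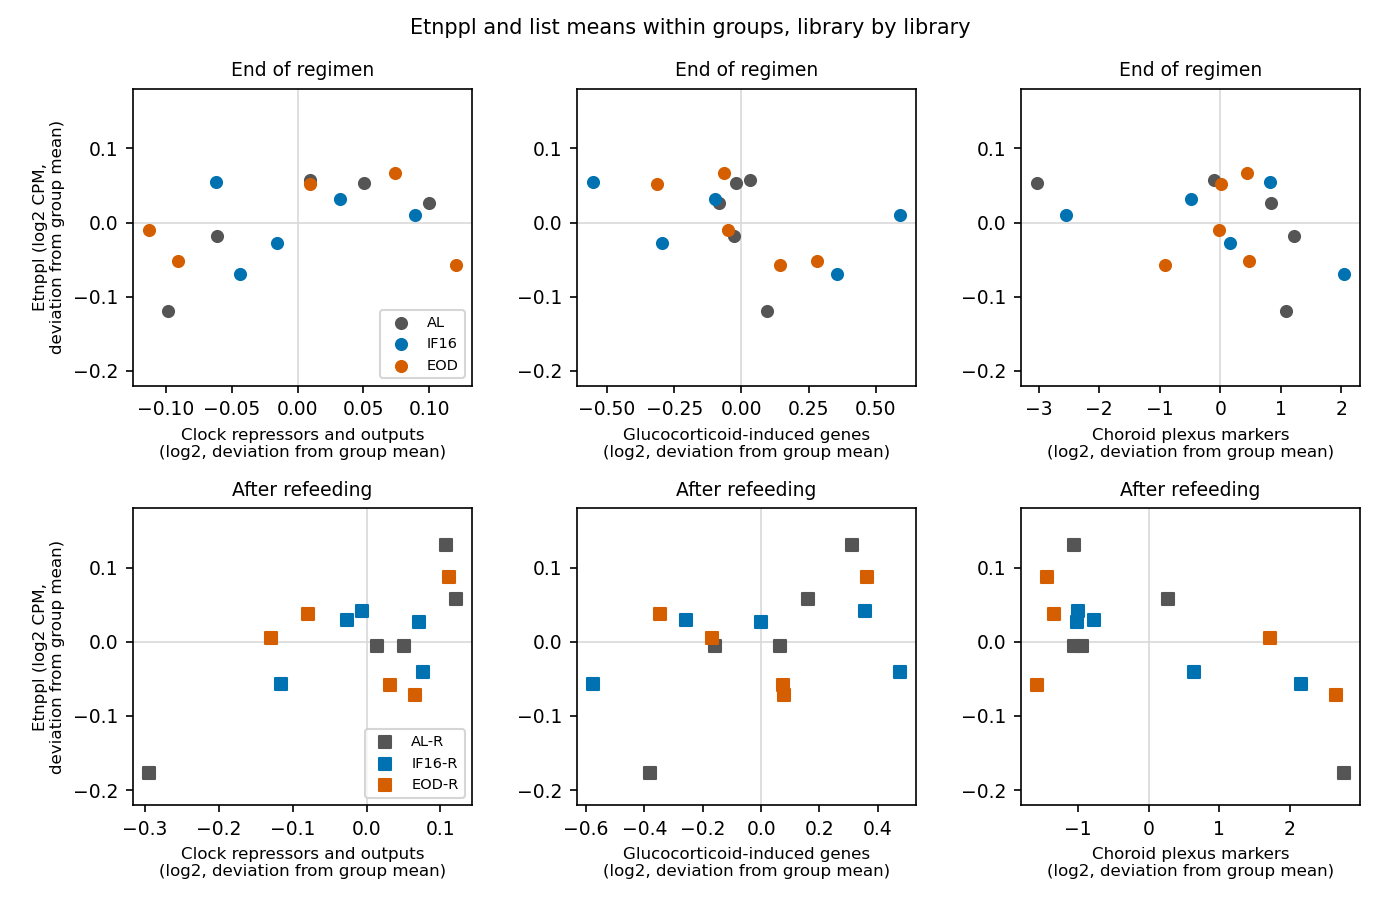
Deviation of log2 Etnppl from its group mean (vertical axes) against the deviation of 3 list means (horizontal axes, log2) in 15 libraries at the end of the regimens (circles) and 15 after refeeding (squares). AL-R replicate 1, at the bottom of each lower panel, is lowest in the clock panel and highest in the choroid plexus panel, and r in the 3 lower panels is 0.646, 0.452 and -0.673.

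Member by member, as a description with no test, 3 of 19 glucocorticoid-induced genes had a positive within-group r to Etnppl at the end of the regimens and 19 of 19 after refeeding. For the clock repressors and outputs it was 9 of 13 and 13 of 13, and for the astrocyte markers 7 of 24 and 19 of 24. Over all genes the share was 51.8% and 50.6%. List members share libraries, so these are not independent counts. All 11 choroid plexus markers had a negative r at both times. Before refeeding Per3, a repressor of the clock, reached 0.785, and after refeeding Gdf10, a growth factor of Bergmann glia, reached 0.796, the highest of their lists. Neither held at the other time: Per3 had 0.18 after refeeding, the lowest of its list, and Gdf10 had -0.425 before it. The lowest clock repressor or output before refeeding was Usp2 at -0.511. The lowest astrocyte marker after refeeding was Sox9 at -0.554.

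The genes most like Etnppl were ranked by Pearson r over the 30 libraries after each time of collection was centred, among 12933 protein-coding genes with a mean of at least 1 CPM, as a description. The 6 highest were Tef at 0.839, Armcx1 at 0.808, Lgr4 at 0.793, Glyr1 at 0.789, Elovl2 at 0.773 and Mthfd1l at 0.767, where 99% of genes lay below 0.62. This measure includes the differences between groups. Within groups alone the r of these genes ranged from 0.274 for Elovl2 to 0.538 for Tef, where 99% of genes lay below 0.426. The ranking that picked these genes contains the same within-group deviations, so this is not a separate check. Lgr4 is a receptor for R-spondins, Elovl2 elongates very long polyunsaturated fatty acids, and Mthfd1l is a mitochondrial enzyme of folate metabolism.

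Mthfd1l was the one of these 5, Tef aside, that was called against freely fed mice of the same time: it averaged 20.2 ± 0.989 CPM under free feeding and rose to 27.5 ± 2.15 under IF16 (SD, n = 5 each; log2 fold change 0.44, SE 0.0762, edgeR adjusted p = 0.0474, Benjamini-Hochberg), a call that held in 0 of 10 fits without 1 library. Elovl2 averaged 28.7 ± 2.38 CPM under free feeding, 36.7 ± 5.05 under IF16 and 38.5 ± 2.93 under EOD, with edgeR adjusted p-values of 0.266 and 0.158 (Benjamini-Hochberg). The 3 lowest r were those of Pou3f1, a POU transcription factor, at -0.79, Chst1, a sulfotransferase, at -0.787 and Ptchd2 at -0.774. Pou3f1 averaged 6.50 ± 1.99 CPM under free feeding, 3.67 ± 0.812 under IF16 and 3.61 ± 0.566 under EOD, and it was highest among AL-R libraries in replicate 1, at 7.91 CPM. The highest within-group r were those of Tmem132c at 0.601, Csnk1e, a casein kinase that acts on PER proteins, at 0.591 and Prrx1 at 0.59.

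**Figure D4:**
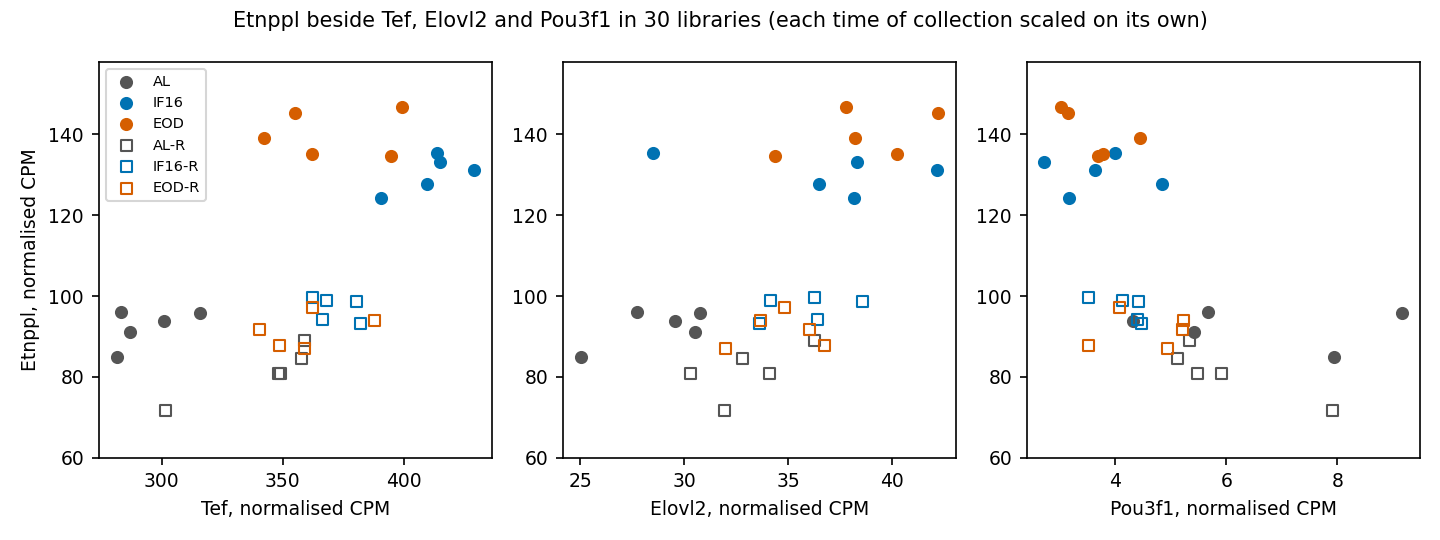
Etnppl (vertical axis, normalised CPM) against Tef, Elovl2 and Pou3f1 (horizontal axes, normalised CPM) in 30 libraries, filled circles for the end of the regimens and open squares for after refeeding. Fasted libraries lie highest in Etnppl, and their group means are above AL for Tef and Elovl2 and below AL for Pou3f1. The r of 0.839, 0.773 and -0.79 are of log2 CPM after each time of collection was centred, not of the points as drawn. AL-R replicate 1 is lowest in Etnppl.

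The tested neighbours of Etnppl on the chromosome are given as a description. Of the 5 tested genes on each side, at 17.6 to 722 kb, 0 of 10 were called in any of the 4 comparisons. The shares of all genes called were 0.0483% (IF16), 0.0664% (EOD), 0.17% (IF16-R) and 0.0426% (EOD-R), so 0 of 10 does not set the neighbours apart. Their log2 fold changes ranged from -0.34 to 0.07 in IF16 against AL and from -0.48 to 0.30 in EOD against AL. At an unadjusted p under 0.05, 0 passed in IF16, 2 in EOD, 1 in IF16-R and 1 in EOD-R, where 9.92%, 14.4%, 9.58% and 8.5% of all genes passed in either direction. The nearest tested genes were Col25a1, a membrane collagen 17.6 kb before, and Ostc, a subunit of the oligosaccharyltransferase 60.2 kb after.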

How the data were processed

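For each time of collection the authors deposited a table of raw read counts, and FPKM values for the same libraries. Scaling the counts by length and by library sum gave back the deposited FPKM within a relative difference of 5e-12. The submitters' processing notes name STAR 2.5, HTSeq 0.6.1, DESeq2 2 and the build mm10, with no role or order. Handling of read strand and the annotation release are not given in the sources used here. Every column was matched to 1 library by its label, 34490 identifiers had a match among mouse gene names, and over 60 pairs of libraries of a group the lowest chi-square per degree of freedom was 4.24, so none agreed within sampling noise. The labels number the libraries of a group as replicates and do not say that each came from a separate mouse, so p-values measure the spread between these libraries, which may be technical.

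Counts were fitted with edgeR 4.0.16 in R 4.3.3 (TMM, filterByExpr, quasi-likelihood test, Benjamini-Hochberg adjustment over all genes, calls at an adjusted p under 0.05). The fits held 15 libraries each, with 16577 and 16444 genes, and a joint fit of 30 libraries held 16877. CPM are TMM-scaled within a time of collection, and log2 CPM used a prior count of 2. At a raw count of at least 2333 for Etnppl, the spread between libraries rather than counting error sets the precision. The fitting step was tested on simulated data. DESeq2 1.42.0, limma 3.58.1 (voom), other scalings, no filter, covariates, a replicate block and fits without single libraries were the alternatives. Figures and permutations used Python 3.11.15 with numpy 2.4.6 and scipy 1.17.1.

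The gene, the lists and the tests were chosen with earlier results of these data known. Named genes were Etnppl, list members called in a comparison or among the 3 smallest p-values per list in IF16 or EOD against AL, a fixed set of pathway, astrocyte, clock and glucocorticoid genes, the genes most like and unlike Etnppl, and its 10 tested neighbours. Chka, Sgpl1, Gjb6, Per3, Sox9 and the library values given for single genes were picked out after their values were seen.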

Additional observations from a re-analysis of the deposited data

Results flagged for a closer look

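Etnppl itself had no library that stood apart by Dixon's test within a group. Of 252 groups of 5 libraries tested for 42 of the genes named, 16 had a library beyond the critical value of 0.71, where chance gives about 1 in 20. AL-R replicate 1 held 4 of them: it was lowest in its group for Tef (302 CPM), Dbp (49.2) and Prrx1 (11) and highest for Pou3f1 (7.91), and it was also lowest for Etnppl and high in choroid plexus markers. EOD-R replicate 5 held 3: lowest for Angptl4 (1.67) and highest for Plin4 (3.75) and Zbtb16 (14.4). AL replicate 1 was highest for Armcx1 (69.7) and Slc1a2 (656) and lowest for Usp2 (89.5). The others were AL replicate 5, lowest for Mthfd1l (18.5), AL replicate 4, lowest for Prrx1 (9.25), and IF16 replicate 1, lowest for Gja1 (210). IF16-R replicate 3 was highest for Arntl (48.3), EOD-R replicate 4 for Etnk1 (285) and AL-R replicate 2 for Slc4a4 (426).

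For 2 genes the IF16 difference at the end of the regimen exceeded that after refeeding by the interaction test of edgeR with Benjamini-Hochberg adjustment over 16877 genes, of which 0.0474% passed in either direction. Ciart differed by 0.885 on the log2 scale (SE 0.131, adjusted p = 0.00301) and Tef by 0.368 (SE 0.073, adjusted p = 0.0454). The same estimate for Etnppl, 0.24 (SE 0.0699), carries no test because the gene was chosen on part of it.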

How the results depend on the processing

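Etnppl kept its direction under every alternative run: its log2 fold change ran from 0.462 to 0.501 in IF16 against AL, 0.579 to 0.614 in EOD against AL, 0.235 to 0.257 in IF16-R against AL-R and 0.163 to 0.175 in EOD-R against AL-R. Leaving out 1 library, it ran from 0.464 to 0.517, 0.572 to 0.617, 0.21 to 0.286 and 0.127 to 0.202. The IF16-R call was lost with the gene length slope in the fit (0.244). In the single-library fits, called genes ran from 0 to 1 for astrocyte markers lower in IF16, 2 to 4 for clock genes higher in IF16, 0 to 1 for glucocorticoid-induced genes higher in IF16, 0 to 1 for clock genes and 0 to 1 for glucocorticoid-induced genes higher in EOD, 0 to 2 for astrocyte markers higher in IF16-R and 0 to 1 in EOD-R. Before refeeding, r ran from -0.688 to -0.43 with the astrocyte markers, -0.62 to -0.358 with the glucocorticoid-induced genes and -0.23 to 0.368 with the gene length slope. After refeeding it ran from -0.0413 to 0.421 with the ethanolamine genes, -0.8 to -0.501 with the choroid plexus markers and -0.0595 to 0.165 with the slope.

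With DESeq2 the counts of called genes were, for IF16, 8 clock repressors and outputs and 6 glucocorticoid-induced genes higher and 1 clock activator lower; for EOD, 6 and 7 higher, and 1 astrocyte marker in each direction; 1 astrocyte marker lower in IF16-R and 3 higher in EOD-R. With the gene length slope in the fit they were 9 clock and 3 glucocorticoid-induced genes higher and 1 activator lower in IF16, 1 clock gene higher in EOD, and 0 astrocyte markers higher in IF16-R and EOD-R. For glucocorticoid-induced genes higher in IF16, limma-voom, the 2 groups alone and the choroid plexus covariate gave 0, and the fit without the 4 libraries gave 2. For clock genes higher in EOD, limma-voom, RLE scaling, the 2 groups alone and the fit without the 4 libraries gave 0, and upper-quartile scaling and no filter gave 1. For glucocorticoid-induced genes higher in EOD, limma-voom, RLE scaling and the fit without the 4 libraries gave 1. Upper-quartile scaling gave 0 astrocyte markers higher in EOD-R. On log2 FPKM, r turned to 0.0067 for the ethanolamine genes at the end of the regimens, and to -0.0694 for the astrocyte markers and -0.0255 for the gene length slope after refeeding. The cause was not tested.

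Over all genes, the deviations of same-numbered libraries had a median correlation of -0.044 (lowest -0.534) at the end of the regimens and 0.104 (lowest -0.0545) after refeeding, and 0 and 7 of 15 libraries correlated best with their own number. The numbers were not taken as pairs in the main fits, and the labels do not say what they stand for. After refeeding the glucocorticoid-induced genes followed them. The median share of variance between numbers over all genes was 43.4% then, and 26.1% at the end of the regimens. No chance level was worked out for these values, so they do not settle whether the numbers mark pairs. With the replicate block, Etnppl differed by 0.498, 0.603, 0.254 (edgeR adjusted p = 0.0144, Benjamini-Hochberg) and 0.17 (0.114) in the 4 comparisons. The block gave 0 astrocyte markers lower in IF16, 0 clock and 1 glucocorticoid-induced gene higher in EOD, 2 glucocorticoid-induced genes lower in IF16-R and 1 in EOD-R, and 2 astrocyte markers higher in EOD-R. With the means of the numbers removed from the within-group relations, an alternative chosen after seeing the data, r turned to 0.0471 for the astrocyte markers and 0.144 for the ethanolamine genes at the end of the regimens, and to -0.112 and -0.28 after refeeding, and no relation passed. The fit without the 4 libraries that stood apart in gene length was not run for the refed comparisons, because those libraries belong to the other time of collection.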

Other observations

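Red blood cell markers had median log2 fold changes of -0.88 in IF16-R and -1.61 in EOD-R against AL-R, with 0 of 5 called, where those of Etnppl were positive. Within groups all 5 had a positive r to Etnppl after refeeding, with a median of 0.744 over 15 libraries, and 1 of 5 had one at the end of the regimens, with a median of -0.0736. All 6 oligodendrocyte markers also had a positive within-group r after refeeding (median 0.246), against 1 of 6 at the end of the regimens. These are descriptions over shared libraries, and what they have to do with the Etnppl level was not tested.

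Phykpl, the relative of Etnppl that acts on phosphohydroxylysine, had a within-group r to Etnppl of 0.407 at the end of the regimens and -0.545 after refeeding. The spread of Etnppl within groups was low for its level at the end of the regimens and not after refeeding: of the 500 genes nearest in level, 31 had a smaller within-group SD at the first time and 321 at the second. The gene was chosen on libraries of the first time, which favours a small spread there, so nothing is read from this contrast.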
